A study of Homo sapiens with 4 samples.

Results

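The regions described here are stretches of the autosomes in which the lamin B1 signal of the prostate cancer line LNCaP dropped far below its usual level. They were chosen by that signal: every 40 kb bin of chromosomes 1 to 22 that had a value in both cell lines and a log2 enrichment (ChIP over input) under -0.8 in LNCaP. Of 67170 such autosomal bins, 787 qualified (1.17%), which is 31.5 Mb of sequence, and they are called trough bins below. Because LNCaP values chose them, the LNCaP values are given as a description and no test is attached to them. VCaP values took no part in the choice.

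Lamin B1 is a filament protein of the nuclear lamina, the meshwork that lines the inner nuclear membrane. Chromatin that touches the lamina is typically gene-poor, late-replicating and weakly transcribed, and forms long lamina-associated domains. Gene-dense chromatin usually lies away from it, in the nuclear interior. Enrichment is read as a ratio of antibody-recovered DNA to input DNA, and input carries the copy number of the line, so the ratio alone does not report copy number.

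The study measured lamin B1 chromatin immunoprecipitation followed by sequencing in cultured, formaldehyde-fixed cells of 2 established lines, with no drug or genetic treatment named in the labels. Both LNCaP and VCaP are prostate cancer lines. Each line has 1 lamin B1 library and 1 input library made without antibody, so each of the 4 groups holds 1 library and no difference between the lines could be tested against replicates. Both genomes are rearranged, as in many cancer lines, and each line enters as 1 library pair. Values are the authors' log2 ratios per bin in the hg19 build, with an associated or non-associated state per bin from a hidden Markov model. Read depth is unknown, and the copy number of these regions was not tested.

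Trough bins were unevenly spread over the chromosomes. Chromosome 11 held 123 of them, chromosome 13 held 91, chromosome 2 held 73, chromosome 19 held 69 and chromosome 21 held 62, whereas chromosome 20 held none. Relative to its size chromosome 21 had the largest share, with 7.01% of its 884 bins, followed by chromosome 19 with 4.94% of 1398. Chromosome 21 also had a low LNCaP median over all of its bins, at -0.40, against 0.06 for all autosomal bins. The chromosomes also differed in what VCaP showed there. On chromosome 11, 115 of 123 trough bins carried the associated state in VCaP, and on chromosome 19 this held for 65 of 69. On chromosome 2 it held for 10 of 73, and on chromosome 21 for 14 of 62. The VCaP associated share over whole chromosomes was 52.7% for chromosome 11 and 95.5% for chromosome 19. It was 37.2% for chromosome 2 and 43.1% for chromosome 21. The high count of chromosome 19 is thus close to the share of that whole chromosome. The whole-chromosome share in VCaP was also high on chromosomes 22 (90.3%), 16 (85.8%) and 17 (75.2%). It was lowest on chromosomes 13 (22.6%) and 4 (25.4%). Whether the associated state marks typical lamina-associated domains in VCaP was not tested.

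**Figure D1:**
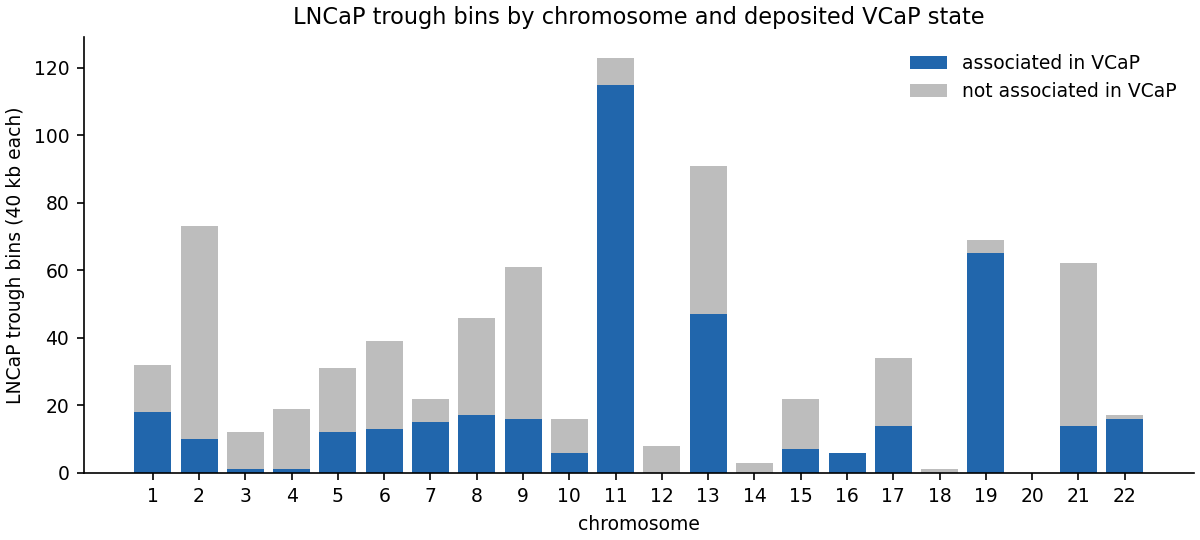
Number of 40 kb LNCaP trough bins on each autosome (bar height), divided by the deposited VCaP state of the same bin. Chromosome 11 has the tallest bar, 123 bins of which 115 are associated in VCaP, and chromosome 20 has none.

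In LNCaP the trough bins had a median log2 enrichment of -1.005, an interquartile range of -1.30 to -0.88 and a lowest value of -4.24. None of the 787 was in the LNCaP associated state, which held 37.4% of all autosomal bins. The threshold cut through a continuous range of values. The 5 trough bins nearest to it had LNCaP values from -0.80286 to -0.80064, and the 5 bins just outside had values from -0.79999 to -0.79826. Chromosome 19 supplied 3 of the former and 2 of the latter. About as many bins lay between -1 and -0.8 (388, or 49.3% of the trough bins) as lay deeper. A further 251 lay between -1.5 and -1, 114 between -2 and -1.5, and 34 under -2.

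VCaP showed no common low level in these bins. Its median there was 0.16, with an interquartile range of -0.38 to 0.58, against a median of 0.19 and a range of -0.11 to 0.50 over all autosomal bins. The medians thus lay close together, and the quartiles lay farther apart than over all bins. The trough median was 0.01 without the 2 longest troughs, 0.05 without chromosome 11 and -0.11 when each trough counted once. Its closeness to 0.19 therefore rests on the long troughs. VCaP was associated in 393 trough bins (49.9%), against 44.0% of all bins. This share was 41.9% without chromosome 11 and 35.6% when each trough counted once, so its side of 44.0% is not settled. It was under 0 in 324 (41.2%), against 33.5% of all bins. It was itself under -0.8 in 77 (9.78%), against 1.07% of all bins. The difference VCaP minus LNCaP was over 1 in 480 trough bins (61.0%), against 3.90% of all bins, but that contrast contains the LNCaP value that chose the bins and nothing is read from it.

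**Figure D2:**
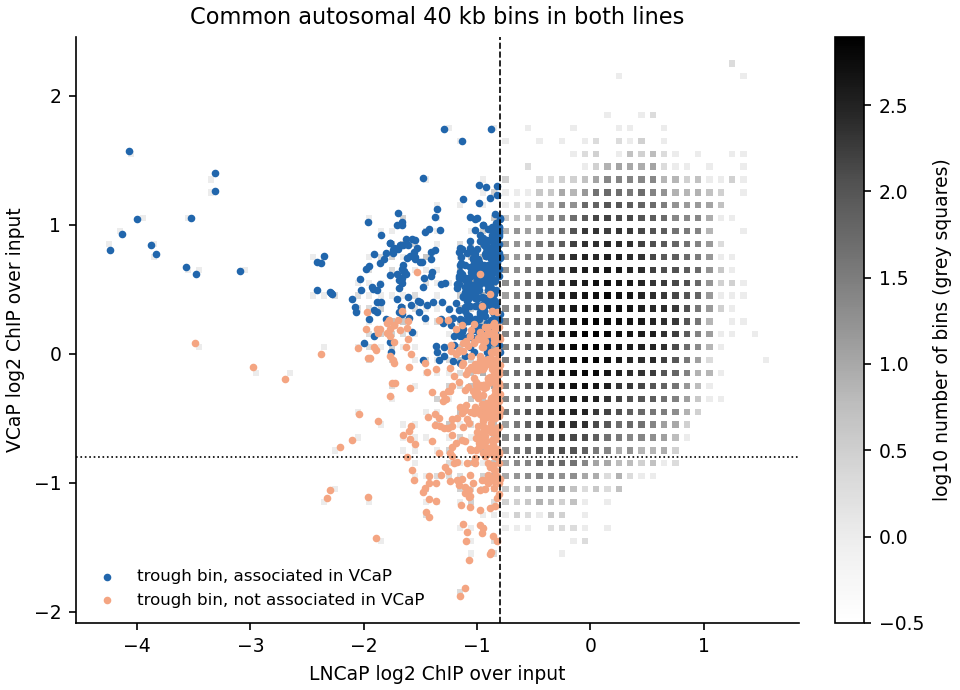
LNCaP (x) and VCaP (y) log2 ChIP over input of the common autosomal 40 kb bins. Grey squares give the number of bins on a log10 colour scale, points are the 787 trough bins coloured by VCaP state, and the dashed and dotted lines mark -0.8 in LNCaP and in VCaP. Trough bins span VCaP values from -1.88 to 1.74.

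The VCaP level differed with the depth of the LNCaP trough. Among bins just outside the rule, with LNCaP between -0.8 and -0.6, VCaP had a median of -0.04 and was associated in 32.0% of 1172 bins. Inside the rule the associated share was 44.3% between -1 and -0.8, 51.0% between -1.5 and -1, 60.5% between -2 and -1.5, and 70.6% under -2. The corresponding VCaP medians were 0.05, 0.08, 0.35 and 0.49. Neighbouring bins share a region, and a pair of chromosomes supplied much of this order: 65 of the 114 bins between -2 and -1.5 lay on chromosome 13 and 16 on chromosome 11. Without chromosomes 11 and 13, a choice made after the values were seen, the associated share was 38.7%, 38.7% and 39.4% in the first 3 of these bands and 67.7% in the 31 bins under -2, which came from 13 troughs with up to 8 bins each. The order among the first 3 bands therefore rests on those chromosomes.

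Adjacent trough bins were joined into 216 runs, called troughs. Most were short: 73 were a single bin, the median was 2 bins, and 35 had at least 5 bins. The 35 longer troughs held 424 bins (53.9% of the total), and the 2 longest alone held 153 (19.4%). By their VCaP state the 35 fell into 3 kinds. VCaP was associated throughout in 12 of them (189 bins), with a median of the trough means of -1.02 in LNCaP and 0.58 in VCaP. Of these 189 bins, 83 and 28 lay in 2 neighbouring troughs of chromosome 11. A further 5 of the 12 troughs lay on chromosome 19, where 95.5% of all bins were associated in VCaP, against 44.0% of all autosomal bins. VCaP was associated nowhere in 17 (122 bins), with medians of -1.04 in LNCaP and -0.44 in VCaP. In the other 6 (113 bins) the VCaP state changed inside the trough. The LNCaP medians of the first 2 kinds were thus nearly the same, and that of the other 6 troughs was -1.40. The VCaP state sorted the kinds, so their VCaP medians differ partly by construction and nothing is read from that contrast.

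Bins near gaps of the table were overrepresented. Of the trough bins, 125 (15.9%) lay within 5 bins of a gap or a chromosome end, against 1.84% of all autosomal bins. The share was 24.5% in troughs of 2 to 4 bins and 2.29% in those of 10 or more. Among the 719 bins with VCaP under -0.8 it was 3.06%. The part of gaps in the short troughs was not tested.

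The longest trough lay on the long arm of chromosome 11, from 64720001 to 68040000, and spanned 83 bins. It is a gene-dense stretch, known to hold NEAT1 and MALAT1, abundant nuclear long noncoding RNAs, and GSTP1, a glutathione transferase gene often silenced by promoter methylation in prostate cancer. LNCaP values ran from -1.35 to -0.81 with a mean of -1.01 and an SD over bins of 0.12. VCaP values ran from -0.07 to 1.08 with a mean of 0.59 and an SD of 0.28, and all 83 bins were associated. The lines did not overlap in any bin of the trough. The LNCaP noise between bins 3 apart in this trough was 1.01 times that of all autosomal bins. Only bins under -0.8 in LNCaP entered it, so its size is partly built in and nothing is read from it.

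A deeper trough of 28 bins lay just proximal to it, from 63200001 to 64320000, and is known to hold ESRRA, an orphan nuclear receptor gene. Its LNCaP mean was -1.49 (SD over bins 0.23) and its VCaP mean 0.54 (SD 0.26), again with VCaP associated in all bins. Together with a short trough between them, these made up 114 trough bins among the 121 bins from 63200001 to 68040000. VCaP was associated in all 121 bins and LNCaP in none. At the distal end LNCaP stepped up by 0.70 between bins 3 apart, and VCaP by 0.39. At the proximal end of the 28-bin trough LNCaP stepped down by 0.71 while VCaP stepped up by 0.12.

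The second longest trough was on chromosome 13 from 109560001 to 112360000, with 70 bins. IRS2, an adaptor of insulin signalling, and COL4A1 and COL4A2, which encode basement membrane collagen chains, are known to lie in this part of the chromosome. LNCaP had a mean of -1.72 (SD over bins 0.25) and a range of -2.08 to -0.82. The VCaP state changed within the trough. In the 30 bins up to 110760000 VCaP was not associated and had a mean of 0.07 (SD 0.17), and in the 40 bins beyond it was associated with a mean of 0.61 (SD 0.26). LNCaP had nearly the same level in both parts, -1.64 (SD 0.32) and -1.78 (SD 0.15), and the first part includes the sloping start of the trough. The VCaP state made this split at 110760001. The VCaP difference is thus partly built in, and its size is not compared with that in LNCaP. The trough ended at a gap of the table, and 5 of its bins lay beside that gap. Beyond the gap a trough of 7 bins followed from 112480001 to 112760000, with means of -1.44 in LNCaP and 0.75 in VCaP. At its distal end LNCaP stepped up by 2.01, against 0.11 in VCaP.

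Chromosome 6 held a trough of 17 bins from 20200001 to 20880000. The stretch is known for E2F3, a cell cycle transcription factor gene, and CDKAL1, which encodes a tRNA-modifying enzyme. LNCaP had a mean of -1.29 and was lowest at its higher coordinates. The first 9 bins, associated in VCaP, had means of -1.12 (SD 0.18) in LNCaP and 0.30 (SD 0.15) in VCaP. The last 8 bins, not associated in VCaP, had means of -1.49 (SD 0.22) and -0.47 (SD 0.23). Here both lines were lower in the last 8 bins, but the VCaP state made the split, so the VCaP difference is partly built in. A second trough of that chromosome, 9 bins from 11040001 to 11400000, is where NEDD9, a focal adhesion scaffold gene, is known to lie. It interrupted an associated stretch of LNCaP: the flanking bins had a median of 0.47, 14 of 16 of them associated, while the trough had a mean of -1.004 (SD 0.09). VCaP was associated neither in the trough nor in any of the 16 flanking bins, with a trough mean of -0.00 (SD 0.15) and a flank median of 0.10.

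On the long arm of chromosome 19, 12 troughs, each within 1 Mb of the next, lay between 43920001 and 49520000. They held 60 trough bins among 140, all 60 associated in VCaP, as were 127 of the 140, and LNCaP was under 0 in all 140. The longest had 15 bins from 47240001 to 47840000, around BBC3, a gene that promotes apoptosis, with means of -1.02 (SD 0.14) in LNCaP and 0.39 (SD 0.24) in VCaP. Its edges were shallow, a step down of 0.40 and a step up of 0.41 in LNCaP, since the flanks themselves had a median of -0.67. VCaP stepped the same way at both ends, by -0.55 and 0.44. Troughs here were the lowest parts of a long low stretch, and their limits depend on the threshold.

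A pair of troughs on the long arm of chromosome 21 was low in both lines. The first, 15 bins from 17440001 to 18040000, lies where the noncoding host gene MIR99AHG is known to be. It had means of -1.25 (SD 0.21) in LNCaP and -0.89 (SD 0.25) in VCaP, with 10 of its bins under -0.8 in VCaP. The second, 14 bins from 22400001 to 22960000, lies around NCAM2, a neural cell adhesion gene. Its means were -1.26 (SD 0.13) and -0.54 (SD 0.26). At the distal ends both lines stepped up, LNCaP by 1.09 and 0.91 and VCaP by 0.72 and 0.60.

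**Figure D3:**
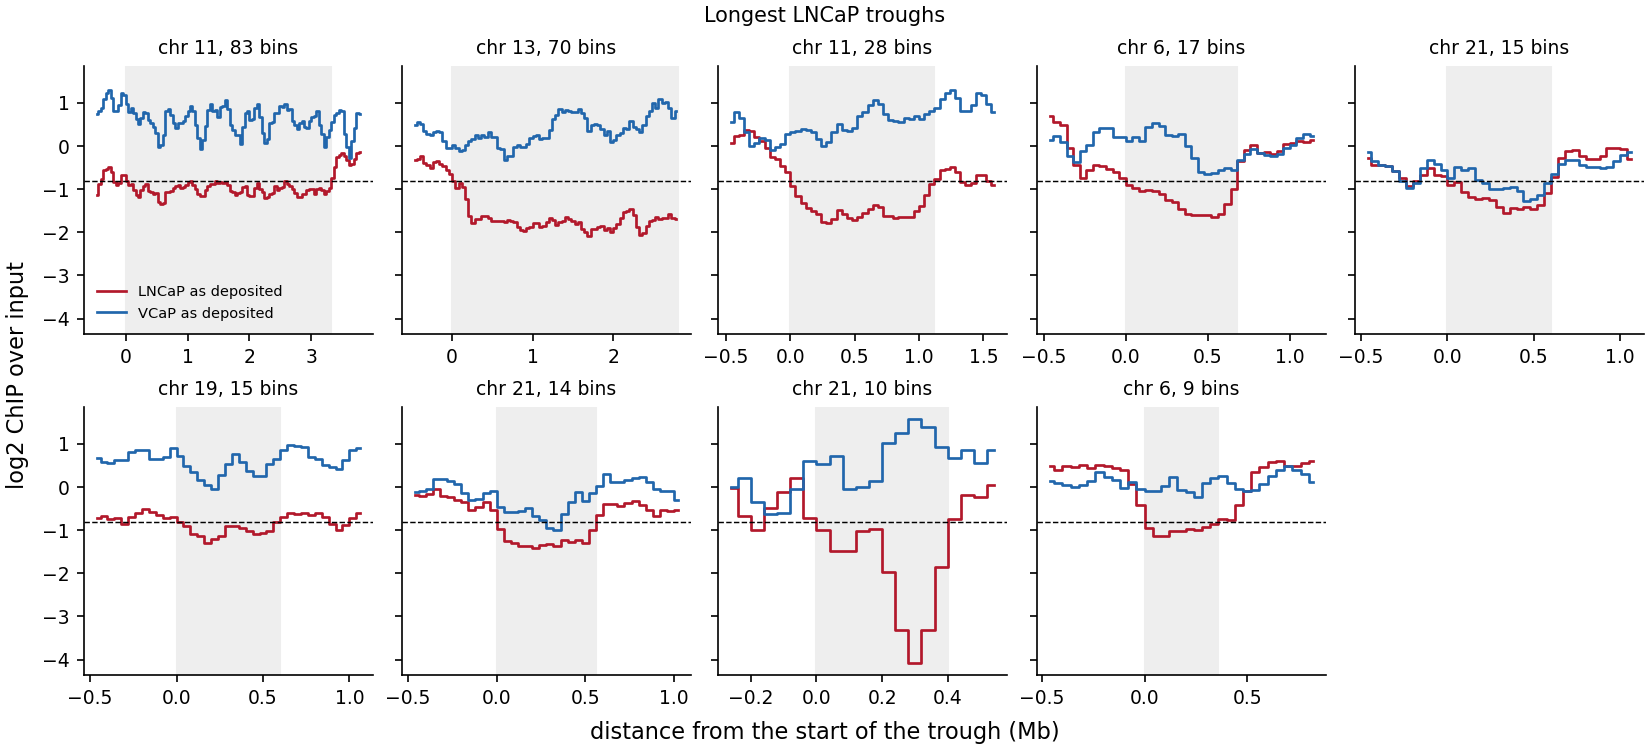
Deposited log2 ChIP over input of LNCaP (red) and VCaP (blue) along 9 of the 10 longest troughs, each with up to 12 bins of flank. The x axis is the distance in Mb from the first trough bin, grey marks the trough and the dashed line -0.8. The lines run apart along both chromosome 11 troughs (VCaP means 0.59 and 0.54) and together along the 15-bin chromosome 21 trough (means -1.25 and -0.89).

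The other troughs shared by the lines were short. The 77 bins under -0.8 in both lines formed 33 runs, and they were 9.78% of the LNCaP trough bins and 10.7% of the 719 VCaP bins under -0.8. The longest shared run was the 10 bins of chromosome 21 from 17640001 to 18040000. Next came 7 bins on chromosome 3 from 174840001 to 175120000, with means of -0.90 in LNCaP and -1.38 in VCaP, and 7 on chromosome 4 from 102000001 to 102280000, with -1.05 and -1.40. A run of 6 on chromosome 12 from 81800001 to 82040000 had -1.04 and -1.12. In these last 3 the VCaP mean was the lower one. These runs were singled out after their values were seen. At both ends of the chromosome 4 trough VCaP stepped the same way as LNCaP. The steps down were -0.83 and -0.91 and the steps up 1.01 and 1.23 in LNCaP and VCaP. They were read where LNCaP changed most, so the position of a VCaP edge was not tested.

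The deposited values are a running mean of 3 entries, which blurs steep edges and spreads a single low bin over 3. With that mean undone, 84 LNCaP bins lay under -2, in 62 stretches of which 50 were a single bin. Of the 84, 71 were trough bins and the others were not. Beside a gap or chromosome end lay 37 of the 84, against 1.84% of all autosomal bins. In VCaP 18 bins were under -2 with the mean undone, in no stretch longer than 1 bin, and 2 of these were among the 84. The VCaP median over the 84 bins, also undone, was 0.19.

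The 5 short troughs with the lowest means were steep-sided. On chromosome 22 from 20360001 to 20520000 the 4 LNCaP values were -1.95, -3.57, -4.24 and -3.52, against 0.68, 0.67, 0.80 and 1.05 in VCaP. All 4 lay beside a gap, where the trough ended. On chromosome 8 from 39240001 to 39440000 the 5 values were -0.82, -2.38, -3.49, -2.69 and -1.22 in LNCaP and 0.03, 0.00, 0.08, -0.20 and -0.51 in VCaP. Its LNCaP flanks had a median of 0.03, and the steps were -3.81 and 3.34, the former the largest at a left edge among troughs of at least 5 bins.

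The remaining 3 had LNCaP means that were less low. On chromosome 22 from 18720001 to 18880000 the means were -1.89 in LNCaP and 0.63 in VCaP, with VCaP associated in all 4 bins. On chromosome 15 from 24680001 to 24800000 the 3 deposited LNCaP values of -1.69, -1.86 and -1.77 came from 1 bin: with the mean undone they were -4.83, -0.47 and -0.02. VCaP had 0.57, 0.54 and 0.61 there. On chromosome 9 from 45600001 to 45800000 all 5 bins lay beside a gap, and the SD over bins was as large in VCaP (0.77, mean -0.30) as in LNCaP (0.78, mean -1.93). The trough near the start of chromosome 21, from 9680001 to 10080000, was likewise uneven. Its LNCaP values ran from -4.07 to -0.98, with a noise of 9.50 times that of all bins in LNCaP and 2.66 times in VCaP.

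**Figure D4:**
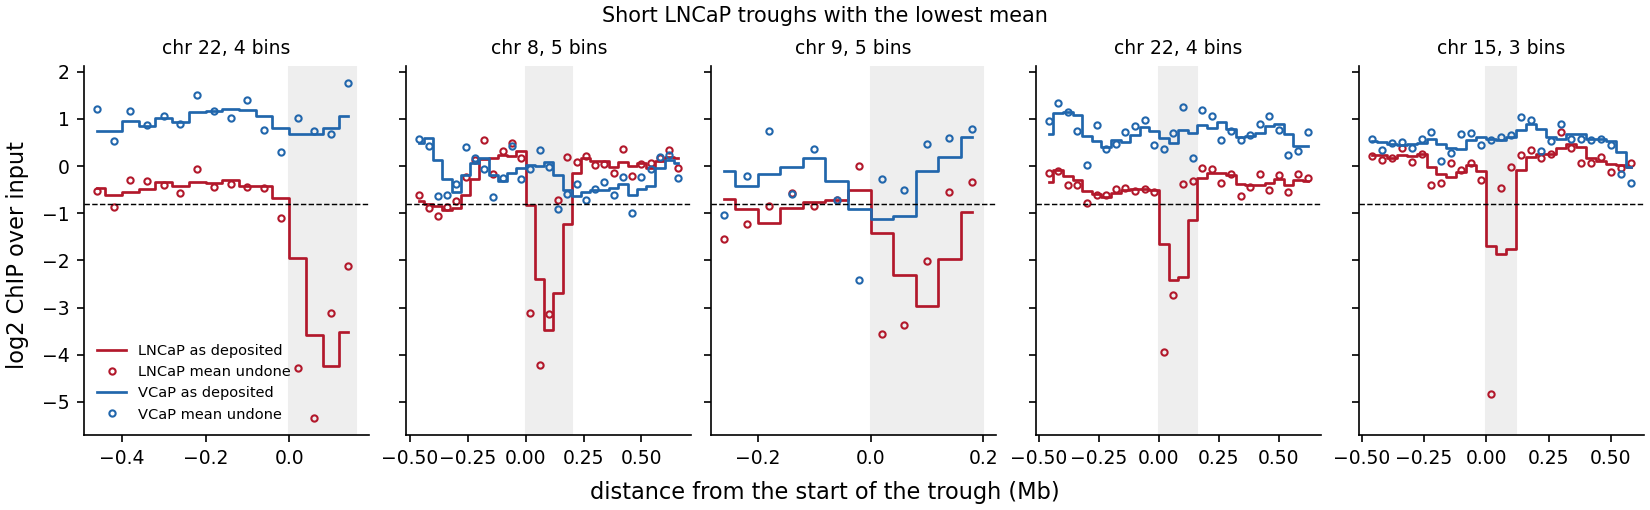
The 5 short troughs with the lowest LNCaP mean, from lowest (left) to highest (right). The x axis is the distance in Mb from the first trough bin. Lines are deposited log2 values and open circles the values with the 3-entry mean undone, LNCaP in red and VCaP in blue. In the chromosome 15 trough 1 circle, at -4.83, lies behind 3 low deposited bins.

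Edges were compared between the lines over the 35 troughs of at least 5 bins, at the pair of bins 3 apart where LNCaP changed most. A left edge with a value on both sides existed for 33 and a right edge for 32. LNCaP, which chose these ends, stepped by at least 0.5 at 21 left edges (1.97% of all pairs of bins 3 apart step down so far) and at 19 right edges (1.98% step up so far). Each edge is the largest LNCaP change among several pairs, whereas these shares are per single pair, so the contrast is partly built in. The median LNCaP step was -0.62 at the left (range -3.81 to -0.18) and 0.67 at the right (0.16 to 3.34). VCaP had medians of -0.31 and 0.38 at the same pairs, with ranges of -2.45 to 0.82 and -0.89 to 1.23. VCaP stepped the same way by at least 0.5 at 11 left edges (33.3%), against 7.10% of all pairs of bins 3 apart, and at 11 right edges (34.4%), against 7.19%. Troughs in which VCaP was nowhere associated had the larger VCaP steps, with medians of -0.51 and 0.61, whereas those associated throughout had -0.15 and 0.17. In that second kind the LNCaP steps were also smaller, -0.40 and 0.42 against -0.77 and 0.77. The VCaP state sorted these kinds, so the difference in VCaP steps is partly built in and nothing is read from it.

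The steepest edges were compared in the same way. Over all 216 troughs, 20 edges of 16 troughs had a LNCaP step of at least 2 in size, a size reached by 0.0524% of all pairs of bins 3 apart. That share is per single pair, whereas each edge is the largest of several. The size of 2 was chosen after the values were seen. VCaP stepped the same way at 10 of the 20, by at least 0.5 at 3 of them, and by at least 0.5 the opposite way at 6. Its median step size there was 0.41, against a single-bin noise of 0.224 in VCaP over all autosomal bins. Of the 16 troughs, 7 had no bin beside a gap. The share over all 216 troughs is not given, so nothing is read from this count.

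**Figure D5:**
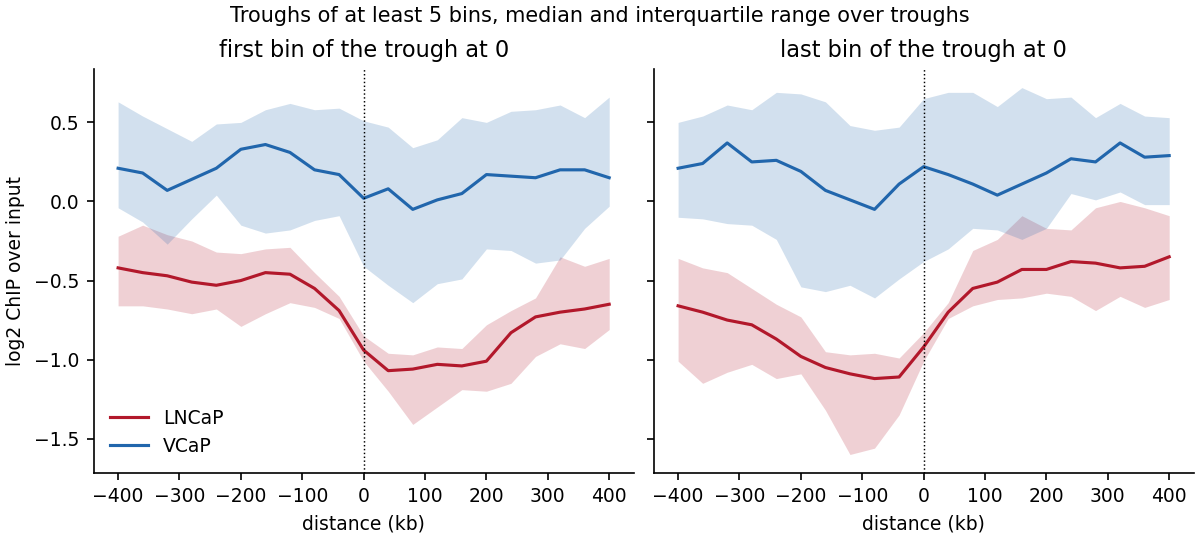
Median (line) and interquartile range (band) of log2 ChIP over input around the first bin (left) and last bin (right) of the 35 troughs of at least 5 bins, by distance in kb. At the first bin LNCaP (red) has a median of -0.94 and VCaP (blue) 0.02, and 3 bins before it -0.46 and 0.31. Troughs shorter than the inner range have ended within it.

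Pooled over troughs, the LNCaP noise of the floors was close to that of all bins. Inside the 35 longer troughs the noise between bins 3 apart was 1.00 times that of all autosomal bins in LNCaP and 1.14 times in VCaP. Long troughs weigh more in these ratios, since they hold more such pairs of bins. Every bin used had to lie inside a trough, under -0.8 in LNCaP. The LNCaP ratios are therefore partly set by the choice of bins. Single troughs differed. In LNCaP the ratio was 0.77 in the 70-bin trough of chromosome 13 and in the 14-bin trough of chromosome 21. It was 1.01 in the 83-bin trough of chromosome 11 and 1.11 in the 15-bin trough of chromosome 21. The 17-bin trough of chromosome 6 had 1.35 and the 15-bin trough of chromosome 19 had 1.39. In the 28-bin trough of chromosome 11 it was 1.70, and in the 10-bin trough of chromosome 21 described above 9.50.

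The same threshold applied to VCaP chose a similar number of bins with a different form. VCaP was under -0.8 in 719 bins, in 337 runs, of which 21 had at least 5 bins. The longest had 23 bins, on chromosome 3 from 174600001 to 175520000, against 83 in LNCaP. The lowest VCaP value was -1.88, and none of these bins lay on chromosomes 19 or 22. LNCaP had a median of -0.36 in them and was associated in 7.37%, against 37.4% of all bins. VCaP in the LNCaP troughs was associated in 49.9%, against 44.0% of all bins. That share was 41.9% without chromosome 11 and 35.6% when each trough counted once, and no such values are given for the 7.37%. Neither the 7.37% nor the 49.9% has a replicate test, as each line has 1 library pair.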

How the data were processed

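The deposited tables give, per line, log2 enrichment of lamin B1 ChIP over input in 40 kb bins, computed by the authors, and a state per bin (AD or iAD) that the authors took from a hidden Markov model, per the deposited tables' names. AD, the state with the higher enrichment, is called associated. The submitters' processing notes name STAR and hg19. How ChIP was scaled to input is not given in the sources used here. The deposited log2 values were checked to be trailing means of 3 entries: in entries wider than 40 kb the median absolute value was 0.21 in LNCaP and 0.33 in VCaP, and 0.01 in both once undone. A value therefore sits about 1 bin downstream.

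Positions count from 1. Noise is the median absolute difference of bins 3 apart, times 1.4826, divided by the square root of 2. A step is the largest change between bins 3 apart within 3 bins of a trough's end. Flanks are up to 8 bins per side, 2 bins off. SDs are over bins of 1 library and are not replicate errors. No test was possible with 1 library pair per line. Named are the 10 longest troughs and the 5 others of at least 3 bins with the lowest means; 1 of the former is not reported here. Other troughs named were chosen after their values were seen. Members, thresholds and rules were chosen with earlier results of these data known. Genes are placed from general knowledge as background, since the RefSeq table at hand is of GRCh38. It was used for symbols and chromosomes only, and no hg19 sequence was used here. On simulated data 110 of 110 planted troughs were found. These were drops of 2 log2 units over at least 8 bins, deeper and longer than most troughs here. Finding of shallow or short troughs was not tested. The tools were Python 3.11.15 with matplotlib 3.10.9 for drawing, and scipy 1.17.1, numpy 2.4.6 and pandas 2.3.3.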

Additional observations from a re-analysis of the deposited data

How the results depend on the processing

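The VCaP level in the troughs lay near 0, and its sign depended on the processing. The median was 0.16 as deposited and -0.08 with the 3-entry mean undone, -0.08 with each line centred on its median and -0.11 when each trough counted once. The VCaP median of all bins was 0.19 as deposited, and centring sets it to 0. In both of these settings the troughs thus lay slightly below all bins, and the change of sign there is a shift of 0. A threshold of -0.6 gave 1959 bins in 542 troughs, 104 of them of at least 5 bins, with VCaP associated in 39.2%, under the threshold in 16.2% and over 1 above LNCaP in 38.7%. A threshold of -1 gave 399 bins, 112 troughs and 17 longer ones, with 55.4%, 6.52% and 74.2%. Undoing the mean gave 1229 bins in 698 troughs, with 43.3%, 17.3% and 49.0%, and centring gave 46.3%, 16.3% and 48.5%. Over all bins the share under the threshold in VCaP was 3.74% at -0.6, 0.275% at -1, 2.92% with the mean undone and 3.50% with centring. Without the 2 longest troughs VCaP was associated in 42.6% of trough bins, under the threshold in 12.1% and over 1 above LNCaP in 52.2%. Without chromosome 11 the associated share was 41.9% and the share over 1 was 54.7%. With each trough counted once they were 35.6% and 45.4%. The associated share, 49.9% as deposited, was thus below the 44.0% of all bins at -0.6, with the mean undone, without the 2 longest troughs, without chromosome 11 and with each trough counted once. With -0.8 and the deposited values, the share under the threshold in VCaP stayed between 9.67% and 12.1%, against 1.07% of all bins. Quantile normalization gave 55.5% over 1. A minimum of 10 bins left 9 troughs, whose median left step was -0.43 and right step 1.00, against -0.62 and 0.67. Leaving out troughs and chromosomes and counting each trough once were chosen after seeing the data. Among single troughs, the VCaP mean of the chromosome 9 trough from 45600001 changed from -0.30 to 0.21 with the mean undone, less than its SD over bins of 0.77, and that of the chromosome 6 trough from 11040001, -0.00 as deposited, has no sign to keep. No paired analysis was possible because there is 1 library pair per line. Depth, which limits single bins, is unknown.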
